A study of Mus musculus with 6 samples.

Results

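The 10 genes described here encode the core machinery of mitochondrial fusion and fission: Mfn1, Mfn2, Opa1, Oma1, Yme1l1, Dnm1l, Fis1, Mff, Mief1 and Mief2. They were taken by gene name, with no threshold on their values, and each of the 10 was found among the 54532 genes of the deposited FPKM table (fragment counts scaled by gene length and library size). RNA-seq was performed on poly-A RNA of peritoneal macrophages, the phagocytes washed from the abdominal cavity, which had been elicited with thioglycolate in wild-type male C57BL/6J mice aged 6 to 8 weeks. Control cells were untreated. Model cells were given LPS, a component of bacterial outer membranes, at 500 ng/mL for 5.5 h and then 2 mM ATP for 0.5 h, a sequence used to prime and trigger the NLRP3 inflammasome. MUS cells were treated in the same way and also with 50 μM muscone, a macrocyclic ketone of musk, 0.5 h before ATP. Each group had 2 libraries, whose replicate number is also their batch in the labels. Nothing says that the libraries came from separate mice or cultures, so p-values measure only the spread between these libraries, which may be technical.

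Mitochondria form a network that is remodelled by opposing dynamin-family GTPases. The mitofusins MFN1 and MFN2 join outer membranes, OPA1 joins inner membranes, and the proteases OMA1 and YME1L1 cut OPA1 into the short forms that balance its activity. Division is driven by DRP1, the product of Dnm1l, which assembles on the outer membrane with the help of the adaptors MFF, MiD51 (Mief1) and MiD49 (Mief2), and FIS1 is a further outer membrane protein linked to division and to the removal of damaged mitochondria. In macrophages, mitochondrial shape is known to change during inflammatory activation. Much of the control of this machinery acts on proteins, by cleavage, phosphorylation and ubiquitination, which RNA levels do not measure.

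Between 15526321 and 17135442 fragments lay on genes in a library, as recovered from the FPKM steps, and between 17406 and 19200 genes had at least 1 fragment, except in Model replicate 1, where 24906 had. Model replicate 1 also stood apart by gene length. Its log2(FPKM + 1) exceeded that of Model replicate 2 by a median of 0.40 over 2199 genes shorter than 2000 bases and fell below it over 3606 genes longer than 5000 bases (median difference -0.21). The 8 macrophage markers were all measured, with a summed level of 9574 to 14283 FPKM, of which Lyz2 alone had 7275 to 12007. By the DEG rule given below, 2 of the 8 rose in Model vs. Control and 1 fell, 37.5% beside 15.1% of all genes. Mean FPKM in Control and Model were 13.1 and 154 for Fcgr1, 266 and 1448 for Cd14 and 240 and 92.0 for Csf1r. The 4 T cell, 4 B cell, 3 mast cell and 3 mesothelial markers summed to at most 1.59 FPKM in a library, and the 3 eosinophil markers were listed at 0. Of the 4 neutrophil markers, Ly6g, S100a9 and Retnlg were listed at 0, whereas S100a8 had 13.5 and 30.6 FPKM for Control, 110 and 56.5 for Model and 64.0 and 50.3 for MUS. By the same DEG rule S100a8 rose in Model vs. Control (log2 fold change 1.90, limma adjusted p = 0.0365). A value of 0 in every library does not tell absent RNA from a gene that was not quantified. In these bulk samples, fewer cells of a type and less RNA per cell cannot be told apart.

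The level of a gene is given in FPKM, which is per length, so levels of different genes can be set side by side as a description. The length is 1 fixed value a gene, from 1714 bases for Fis1 to 9757 for Mff, whichever transcripts were expressed. The order of the genes is therefore approximate. By the mean over the 6 libraries, the order was Yme1l1 (20.4 FPKM), Fis1 (18.2), Dnm1l (17.3), Mff (10.2), Mfn2 (7.84), Opa1 (7.56), Oma1 (4.46), Mief1 (4.17), Mfn1 (3.43) and Mief2 (1.73). Yme1l1 lay at the percentile 80.5 of the 9794 genes tested, whose FPKM averaged 1 or more, and Mief2 at the percentile 14.8. All 10 genes passed that filter. In Control, the first 3 genes had 14.0 ± 3.67 (Yme1l1), 14.1 ± 1.35 (Fis1) and 13.4 ± 3.69 FPKM (Dnm1l, SD, n = 2), so their order was within their spread. Next in Control came Mff (8.54 ± 0.49 FPKM, SD, n = 2), Opa1 (7.97 ± 0.33) and Mfn2 (7.32 ± 0.37). The Mff and Opa1 libraries overlapped, and both Mfn2 libraries lay below those of Mff and Opa1. The outer membrane adaptor Mff and the MiD genes were thus unequal in level, with Mff above Mief1 and Mief1 above Mief2 in every library.

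**Figure D1:**
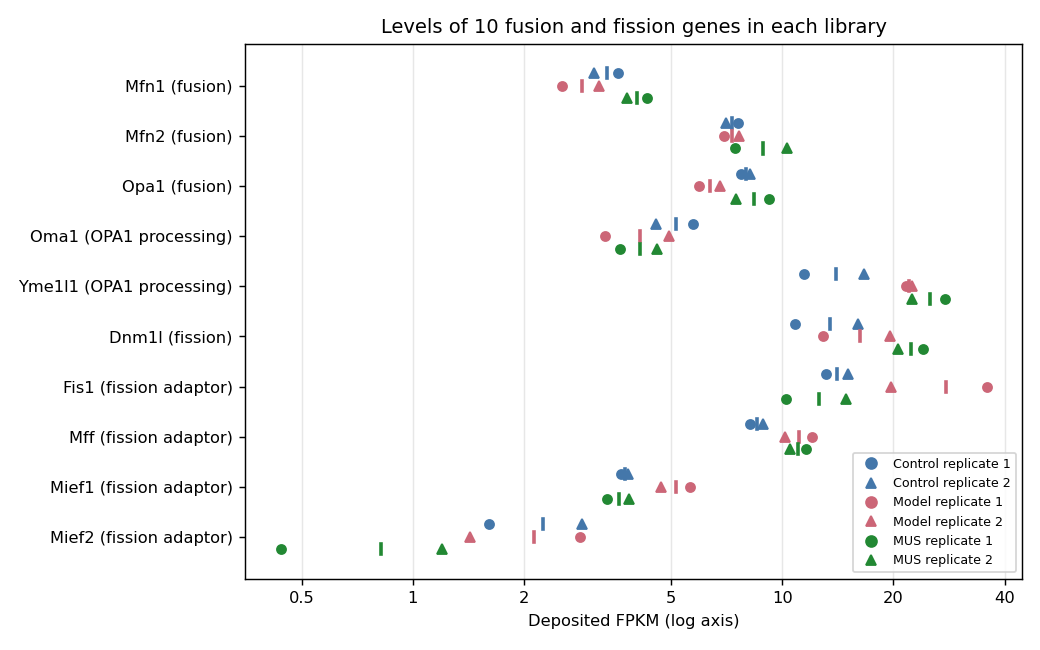
FPKM of the 10 genes in each library, on a log axis, with circles for replicate 1, triangles for replicate 2 and vertical ticks at the group means of 2 libraries. Fis1 in Model replicate 1 (35.9 FPKM) lies above the other Fis1 values, which run from 10.3 to 19.7, and on this deposited scale Yme1l1 lies higher in all 4 Model and MUS libraries than in Control.

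None of the 10 genes was a DEG in either comparison, where a DEG (differentially expressed gene) needed both an adjusted p (Benjamini-Hochberg) no higher than 0.05 and a fold change beyond 1 log2 unit in limma, fitted to log2(FPKM + 1) of all genes tested. Over the whole table, 15.1% of genes were DEGs in Model vs. Control, with 930 upregulated (9.50%) and 545 downregulated (5.56%). At an adjusted p of at most 0.05 without the fold limit, 0 of the 10 genes and 17.3% of all genes passed. At an unadjusted p under 0.05 in limma, 1 of the 10 genes (Fis1) and 33.6% of all genes passed, and voom on the recovered fragments, a count-based weighting within limma, also gave 0 DEGs and 1 gene at that p. Over all 9794 genes voom gave 1785 DEGs and 3386 genes at that p. The Model libraries lay above both Control libraries for 4 genes, against 32.6% of all genes, and below both for 1 gene, against 28.5%, so 5 of the 10 did not overlap beside 61.1% of all genes. The fitted values were above 0 for 5 genes and below 0 for 5, against 52.5% of all genes above 0, and the median log2 fold change was 0.13 beside 0.04 over all genes. Fold changes here are on the log2(FPKM + 1) scale, which understates the change of genes near or below 1 FPKM, such as Mief2. With 2 libraries a group, an exact permutation test of 1 gene cannot give a p below 0.333, so the test rests on the spread that limma pools over genes.

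In MUS vs. Model, which shares the Model libraries with the first comparison, no gene of the 10 was a DEG, nor was any of the 9794 genes (0%). At an unadjusted p under 0.05 in limma, 1 of the 10 genes passed, again Fis1, beside 8.42% of all genes, with voom giving the same 0 DEGs and 1 gene. Over all 9794 genes voom gave 0 DEGs and 749 genes at that p. MUS libraries lay above both Model libraries for 4 genes (Mfn1, Opa1, Yme1l1 and Dnm1l), against 21.2% of all genes, and below both for 3 genes (Fis1, Mief1 and Mief2), against 21.0%, so 7 of the 10 did not overlap beside 42.1% of all genes. The median log2 fold change was 0.09 beside 0.01 over all genes. The 95% confidence intervals had half-widths between 0.476 and 0.826 log2 units. They stayed within 1 log2 unit of 0 for 8 genes in Model vs. Control and for 7 genes in MUS vs. Model, so for the other genes a change of the size of the fold limit was not excluded. That limit is on the log2(FPKM + 1) scale. At a few FPKM, a doubling or halving of FPKM is less than 1 unit there, so an interval within the limit need not exclude it.

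**Figure D2:**
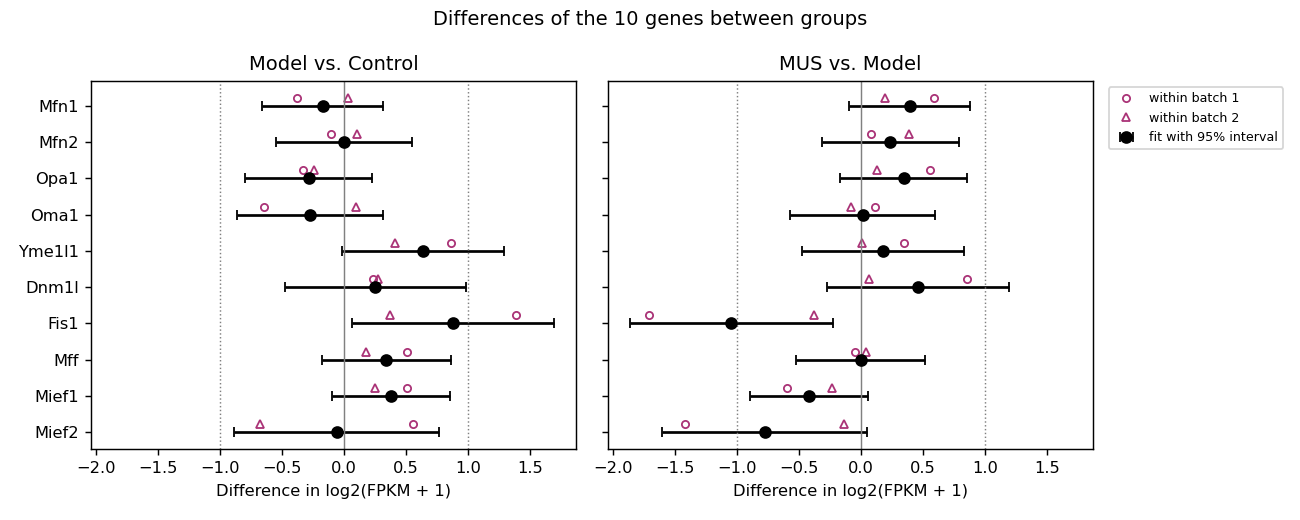
Fitted difference in log2(FPKM + 1) of each gene (black points, with 95% confidence intervals from limma) in Model vs. Control (left) and MUS vs. Model (right), with the difference within each batch as open circles and triangles. Dotted lines mark the fold limit of 1 log2 unit. The Fis1 intervals are the ones that lie off 0, at 0.06 to 1.69 and -1.86 to -0.23.

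Mfn1 and Mfn2 encode the outer membrane GTPases that tether and fuse neighbouring mitochondria. Mfn1 (ENSMUSG00000027668, chr3:32529465-32579239, GRCm38, plus strand) had 3.61 and 3.10 FPKM for Control, 2.54 and 3.20 for Model and 4.31 and 3.81 for MUS. The Model and Control libraries overlapped, whereas both MUS libraries lay above all 4 others. The fitted difference in Model vs. Control was -0.17 (SE 0.21, limma adjusted p = 0.589), and that in MUS vs. Model was 0.39 (95% interval -0.10 to 0.88, adjusted p = 0.686). Mfn2 (ENSMUSG00000029020, chr4:147873599-147904704, minus strand) had 7.58 and 7.05 FPKM for Control, 6.97 and 7.65 for Model and 7.44 and 10.3 for MUS. The 3 groups overlapped, with MUS replicate 2 above the rest. In Model vs. Control the 95% interval ran from -0.55 to 0.55 around a fitted value of -0.00089, which lay above 0 (0.19) after correction for GC content and gene length, and in MUS vs. Model the log2 fold change was 0.24 (limma adjusted p = 0.847). The ratio of Mfn1 to Mfn2 within a library, which does not depend on how libraries are scaled, was 0.476 and 0.440 for Control, 0.364 and 0.418 for Model and 0.579 and 0.368 for MUS. Both Model ratios lay below both Control ratios, and MUS overlapped both groups. Differences between libraries by gene length or GC content can still enter such ratios.

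Opa1 (ENSMUSG00000038084, chr16:29579334-29654884, plus strand), the inner membrane fusion GTPase that also shapes cristae, had 7.74 and 8.20 FPKM for Control, 5.95 and 6.78 for Model and 9.23 and 7.50 for MUS. It was the single gene of the 10 with both Model libraries below both Control libraries, and the MUS libraries lay above Model and overlapped Control. Fitted differences were -0.29 (95% interval -0.80 to 0.23, limma adjusted p = 0.387) in Model vs. Control and 0.34 (-0.17 to 0.86, adjusted p = 0.734) in MUS vs. Model. Gene-level FPKM do not separate the Opa1 splice forms or the long and short proteins.

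Oma1 and Yme1l1 encode the inner membrane metalloproteases that cleave OPA1, the former activated under stress and the latter an ATP-dependent quality-control protease. Oma1 (ENSMUSG00000035069, chr4:103313812-103371868, plus strand) had 5.73 and 4.57 FPKM for Control, 3.30 and 4.94 for Model and 3.64 and 4.59 for MUS. The groups overlapped, with log2 fold changes of -0.28 (limma adjusted p = 0.465) and 0.01 (adjusted p = 0.994) in the respective comparisons. Yme1l1 (ENSMUSG00000026775, chr2:23156369-23199260, plus strand) had 11.4 and 16.6 FPKM for Control, 21.6 and 22.4 for Model and 27.7 and 22.5 for MUS. All 4 stimulated libraries lay above both Control libraries, and MUS replicate 2 exceeded the higher Model library by little. When libraries were scaled to their fragment totals, Control (16.6 and 22.2) and Model (19.6 and 22.4) overlapped. Model exceeded Control by a fitted 0.64 log2 units (SE 0.28, 95% interval -0.02 to 1.29, limma adjusted p = 0.157), and the differences within batches were 0.86 and 0.41. The fitted value was 0.12 with fragment-total scaling, 0.31 after quantile normalization and 0.37 after correction for GC content and gene length. The MUS vs. Model value was 0.18 (limma adjusted p = 0.911), and after correction for GC content and gene length it was -0.11.

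Set against each other within a library, Opa1 and its proteases differed between Control and the stimulated groups where Yme1l1 entered the ratio. The ratio of Opa1 to Yme1l1 was 0.677 and 0.493 for Control, 0.275 and 0.302 for Model and 0.334 and 0.333 for MUS. Control lay above both other groups, and MUS lay above Model without overlap. The ratio of Oma1 to Yme1l1 was 0.502 and 0.275 for Control, 0.153 and 0.220 for Model and 0.132 and 0.204 for MUS, so Control was again higher and Model and MUS overlapped. The ratio of Opa1 to Oma1 was 1.35 and 1.80 for Control, 1.80 and 1.37 for Model and 2.54 and 1.63 for MUS, and the 3 groups overlapped. Of the 45 pairs of the 10 genes, 27 (60%) had ratios that did not overlap between Model and Control, near the 62.3% of all pairs of genes tested. Between MUS and Model, 29 pairs (64.4%) did not overlap, beside 43.7% of all pairs. The 45 pairs share genes, so these are counts and not tests. Fis1 and Mief1 each entered 8 non-overlapping pairs of 9 in MUS vs. Model, and Mfn2 entered 3.

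**Figure D3:**
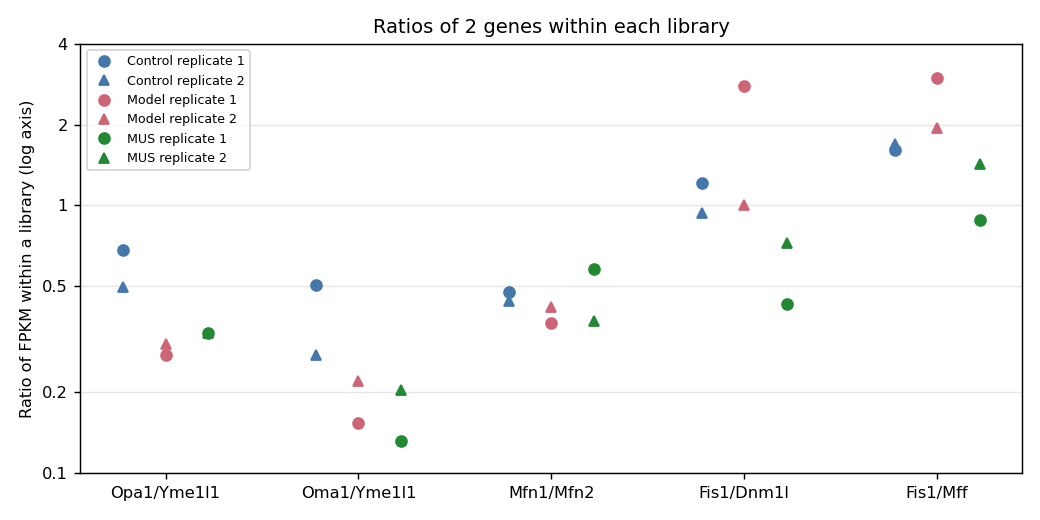
Ratios of FPKM of 2 genes within each library, by group, on a log axis, with a circle for replicate 1 and a triangle for replicate 2. The ratio of Opa1 to Yme1l1 is above 0.49 in both Control libraries and between 0.275 and 0.334 in the other 4, and the ratio of Fis1 to Mff is highest in Model and lowest in MUS. Differences between libraries by gene length or GC content were not removed from these ratios.

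Dnm1l (ENSMUSG00000022789, chr16:16312230-16358959, minus strand), which encodes the division GTPase DRP1, had 10.8 and 16.1 FPKM for Control, 12.9 and 19.6 for Model and 24.1 and 20.5 for MUS. Control and Model overlapped, and both MUS libraries were above the other 4. Model vs. Control gave 0.25 on the log2 scale (limma adjusted p = 0.598), which became -0.26 when libraries were scaled to their fragment totals and -0.02 after quantile normalization. MUS vs. Model gave 0.46 (95% interval -0.27 to 1.19, limma adjusted p = 0.749). The difference between MUS and Model was 0.85 within batch 1 and 0.07 within batch 2. Of the 50-base stretches of Dnm1l transcripts, 4.90% also occur in transcripts of other genes, of which the antisense Gm49521 was listed at 0 in all 6 libraries.

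Fis1 (ENSMUSG00000019054, chr5:136953275-136966234, plus strand) had the largest absolute log2 fold change of the 10 genes in both comparisons. It had 13.1 and 15.05 FPKM for Control, 35.9 and 19.7 for Model and 10.3 and 14.9 for MUS, from 266 to 868 fragments a library. Both Model libraries lay above the other 4, Model replicate 1 far above replicate 2, and Control and MUS overlapped. Model exceeded Control by 0.88 on the log2 scale (95% interval 0.06 to 1.69, unadjusted p = 0.0387, limma adjusted p = 0.126), and 25.3% of genes had a larger absolute value. With fragment-total scaling it was 0.36 (limma adjusted p = 0.423), where Model (32.6 and 19.7) and Control (19.1 and 20.1) overlapped, and after quantile normalization it was 0.53. MUS differed from Model by -1.05 (95% interval -1.86 to -0.23, unadjusted p = 0.0189, limma adjusted p = 0.466), with 3.88% of genes larger. These differences share the Model libraries, so the second is not independent of the first. The difference was 1.38 within batch 1 and 0.37 within batch 2 for Model vs. Control, and -1.71 and -0.38 for MUS vs. Model. Without Model replicate 1, the library that read short genes higher, the values were 0.46 and -0.63. Fis1 has 1714 bases and 54.4% GC, and MUS replicate 1 read genes of over 52% GC lower than MUS replicate 2 did (median difference -0.23). After correction for GC content and gene length the fitted values were 0.98 and -0.90, with limma adjusted p of 0.0806 and 0.608. The cause of the spread between the libraries was not tested.

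By the closeness of its 6 values on the log2 scale, centred on the mean, Fis1 was most like Batf3 (root mean square distance 0.0983), Mrpl16 (0.115) and Sertad1 (0.127) among all genes tested. Batf3, a transcription factor of the AP-1 family, had 0.685 and 0.602 FPKM for Control, 2.66 and 1.33 for Model and 0.290 and 0.732 for MUS. Mrpl16, a protein of the large mitochondrial ribosomal subunit, had 9.28 and 11.9, 23.1 and 13.7, and 8.31 and 10.4 FPKM in the same groups. Like Fis1, these genes were highest in Model replicate 1. Likeness over 6 libraries is a description of shape and includes what sets that library apart. Batf3 lay above 1 FPKM in Model alone, and the added 1 narrows its differences on the log2 scale.

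Mff (ENSMUSG00000026150, chr1:82724890-82752394, plus strand), the main adaptor that recruits DRP1 in many cells, had 8.19 and 8.88 FPKM for Control, 12.04 and 10.2 for Model and 11.6 and 10.5 for MUS. All 4 stimulated libraries lay above Control, and Model and MUS overlapped. Its value was 0.34 in Model vs. Control (95% interval -0.18 to 0.86, limma adjusted p = 0.316), where it was -0.16 with fragment-total scaling, and -0.0052 in MUS vs. Model, where it was 0.022 after quantile normalization. The ratio of Fis1 to Mff was 1.60 and 1.69 for Control, 2.98 and 1.93 for Model and 0.884 and 1.42 for MUS, with no overlap between any of the 3 groups. Fis1 has 1714 bases and 54.4% GC, and Mff has 9757 bases and 37.3% GC. Differences between libraries by gene length and GC content therefore enter this ratio, and their share in it was not tested. The ratio of Fis1 to Dnm1l was 1.21 and 0.937 for Control, 2.78 and 1.01 for Model and 0.426 and 0.724 for MUS. MUS was below the other groups, which overlapped.

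Mief1 and Mief2 encode MiD51 and MiD49, adaptors that can bind DRP1 independently of MFF. Mief1 (ENSMUSG00000022412, chr15:80234018-80253371, plus strand) had 3.67 and 3.82 FPKM for Control, 5.62 and 4.71 for Model and 3.36 and 3.85 for MUS. The Model libraries lay above the other 4, and Control and MUS overlapped. Its value on the log2 scale was 0.38 in Model vs. Control (95% interval -0.10 to 0.85, limma adjusted p = 0.235), where it was -0.07 with fragment-total scaling, and -0.42 in MUS vs. Model (-0.89 to 0.06, adjusted p = 0.655). Within batches the latter was -0.60 and -0.24. The annotation places AC140267.1, listed at 0 in every library, within this locus, and 1.99% of the 50-base stretches of Mief1 are shared with it.

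Mief2 (ENSMUSG00000018599, chr11:60728398-60732951, plus strand) was the lowest of the 10 genes. It had 1.61 and 2.88 FPKM for Control, 2.84 and 1.43 for Model and 0.438 and 1.20 for MUS, from 100 and 179, 109 and 60, and 18 and 53 fragments. Control and Model overlapped, and both MUS libraries lay below the other 4. Model vs. Control gave -0.06 (limma adjusted p = 0.918), where it was 0.21 after correction for GC content and gene length. The MUS vs. Model value was -0.78 (95% interval -1.60 to 0.05, adjusted p = 0.623 in limma), with -1.42 within batch 1 and -0.14 within batch 2. MUS replicate 1 read genes of over 52% GC lower than MUS replicate 2 did (median difference -0.23 over 3245 genes), and Mief2 has 57.6% GC. After the same correction the MUS vs. Model value was -0.56, whereas it was -1.34 with a pseudocount of 0.1 (limma adjusted p = 0.625) and -1.42 with voom (adjusted p = 0.686). The ratio of Mief1 to Mief2 was 2.28 and 1.33 for Control, 1.98 and 3.31 for Model and 7.67 and 3.21 for MUS, where MUS overlapped Model and lay above Control.

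Set side by side, the fitted MUS vs. Model values were above 0 for Mfn1, Mfn2, Opa1, Oma1, Yme1l1 and Dnm1l. They were below 0 for Fis1, Mff, Mief1 and Mief2, beside 51.3% of all genes above 0. Oma1 and Mff, at 0.01 and -0.0052, had no stable sign. MUS replicate 1 read genes under 45% GC higher than MUS replicate 2 (median difference 0.17) and genes over 52% GC lower (-0.23). After correction for GC content and gene length Yme1l1 was below 0 as well. With that correction 5 genes were above 0 and 5 below, with a median of -0.051. In 8 of the 10 genes the sign was the same in both batches, and in Model vs. Control in 6. The share of all genes with the same sign in both batches was not counted, so these counts have no background to be set against. No gene above or below 0 in MUS vs. Model passed the adjusted test, and the difference between these sets was not tested. Against Control, both MUS libraries were higher for Mfn1, Yme1l1, Dnm1l and Mff, beside 39.6% of all genes, and lower for Mief2, beside 33.8%. The other 5 genes overlapped. With fragment-total scaling Yme1l1 stayed higher in both MUS libraries, and Mfn2 and Dnm1l overlapped Control. Mfn1 (4.01 and 3.75 against 5.24 and 4.14), Mff (10.8 and 10.3 against 11.9 and 11.9) and the remaining genes then lay lower in MUS than in Control. This scaling lowers MUS against Control for every gene by construction, and the share of all genes below Control was not counted.

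The scale between libraries decided the sign of several Model vs. Control values. The per-million scale behind the deposited FPKM was 1.45 and 1.34 times the fragments on genes in Control and 0.909 to 0.998 times in the other libraries. With each library scaled to its fragments on genes instead, the median log2 fold change of all genes moved from 0.04 to -0.42, and the DEGs from 930 upregulated and 545 downregulated to 647 and 1633. The median of the 10 genes moved from 0.13 to -0.35. Both Model libraries were then below Control for Mfn1, Mfn2, Opa1, Oma1 and Mff, and the other 5 overlapped. Every gene of Model is lowered against Control by this scaling, and the share of all genes below Control was not counted. Under that scaling Opa1 had a log2 fold change of -0.78 (limma adjusted p = 0.0414), the single gene of the 10 with an adjusted p of at most 0.05, and still under the fold limit. Relative to the median of all genes, the Opa1 difference was -0.33 with the deposited scale and -0.36 with fragment totals, and the Fis1 difference 0.83 and 0.77. The MUS vs. Model comparison used libraries of similar scale and its all-gene median was 0.02 under fragment-total scaling.

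**Figure D4:**
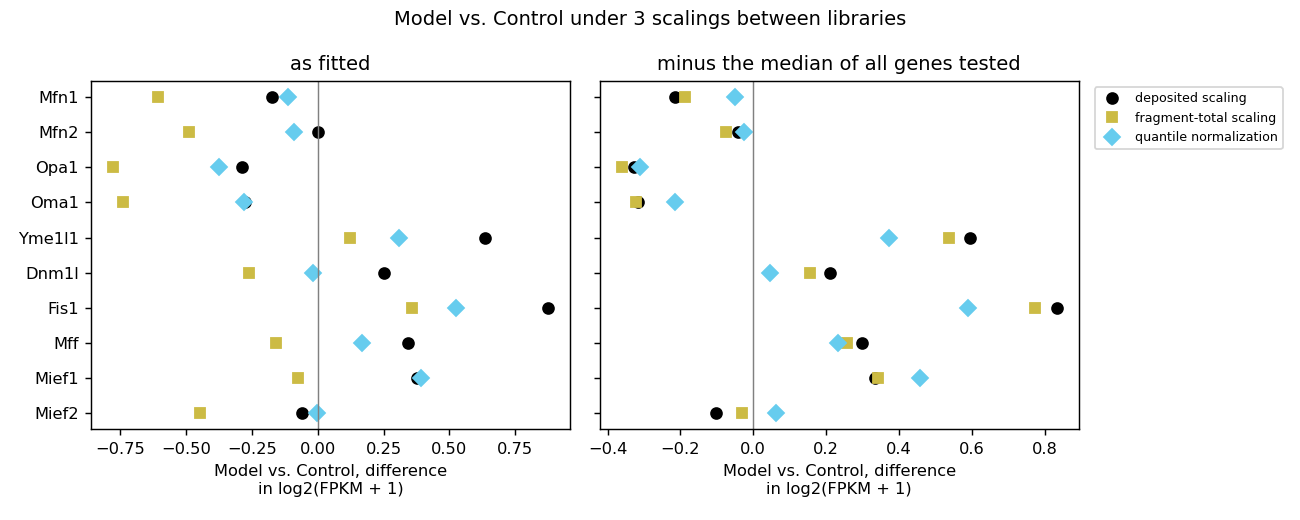
Model vs. Control difference in log2(FPKM + 1) of each gene under the deposited scaling, scaling to fragment totals and quantile normalization, as fitted (left) and minus the median of all genes tested (right). As fitted, Dnm1l, Mff and Mief1 are above 0 with the deposited scaling and below 0 with fragment totals (-0.26, -0.16 and -0.07), while on the right these 3 genes are above 0 under each scaling.

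The upstream sequence was examined because genes of mitochondrial proteins often carry sites for the factors NRF1 and GABP. Windows of 300 bases, from 250 before to 50 after the RefSeq start (GRCm38.p6), were held for all 10 genes, 15 windows in all. The letters CCGGAAG (GABP) on either strand were present in windows of 5 genes (Mfn1, Yme1l1, Dnm1l, Fis1 and Mief1) and in 6 of the 15 windows, beside 8.86% of the 32851 windows of all genes. The letters GCGCATGCG (NRF1) were present in the Opa1 window, as overlapping copies on both strands 59 to 50 bases before the start, beside 1.75% of all windows. CACGTG (E-box) was present in the Mief2 window, beside 7.15%. GGGANTTTC (NF-κB, 1.11% of all windows), TGACGTCA (CRE, 1.79%) and AAGATGGC (YY1, 2.75%) were in none of the 15. A match is a description of these letters and not a site or a cause, and their absence says only that they are not in these windows. The windows of Yme1l1 (chr2:23156255-23156554, plus strand), with 3 copies of the GABP letters, of Fis1 (chr5:136953025-136953324, plus strand), with the largest fitted differences, and of Opa1 (chr16:29579084-29579383, plus strand) are printed 5′ to 3′, with the motif matches in capitals.
Yme1l1: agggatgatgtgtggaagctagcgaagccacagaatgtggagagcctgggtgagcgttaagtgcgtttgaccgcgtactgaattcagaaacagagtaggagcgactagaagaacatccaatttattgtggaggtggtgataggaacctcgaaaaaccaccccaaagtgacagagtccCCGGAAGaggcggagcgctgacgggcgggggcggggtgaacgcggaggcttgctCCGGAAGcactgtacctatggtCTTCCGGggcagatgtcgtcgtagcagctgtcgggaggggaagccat
Fis1: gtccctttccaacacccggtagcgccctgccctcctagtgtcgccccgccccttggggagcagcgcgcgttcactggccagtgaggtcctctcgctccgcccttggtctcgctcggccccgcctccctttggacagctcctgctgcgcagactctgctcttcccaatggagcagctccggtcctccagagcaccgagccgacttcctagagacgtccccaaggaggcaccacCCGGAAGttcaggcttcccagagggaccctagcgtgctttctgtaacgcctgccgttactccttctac
Opa1: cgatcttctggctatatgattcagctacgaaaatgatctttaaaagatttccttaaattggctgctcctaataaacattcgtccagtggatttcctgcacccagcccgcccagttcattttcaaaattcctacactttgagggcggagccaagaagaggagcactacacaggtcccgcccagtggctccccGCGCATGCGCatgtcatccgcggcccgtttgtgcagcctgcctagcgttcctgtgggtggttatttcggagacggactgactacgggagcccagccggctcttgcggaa

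Other genes of the pathway were read from 4 lists. All 13 genes of inner membrane proteases and the cristae scaffold were tested, and 0 were DEGs in Model vs. Control in limma, with 2 at an unadjusted p under 0.05. The shares of all genes were 15.1% and 33.6%, and they apply to each list in this comparison. With voom 1 was called, beside 1785 of the 9794 genes. It was Apool of the cristae scaffold, named after its values were seen, which in limma had a log2 fold change of 1.08 (adjusted p = 0.0513). Spg7, a subunit of the m-AAA protease, had 5.09 ± 0.83 FPKM in Control, 9.59 ± 0.52 in Model and 7.64 ± 0.60 in MUS (SD, n = 2), with a log2 fold change of 0.80 (limma adjusted p = 0.0461) in Model vs. Control, where it was 0.33 with fragment-total scaling. Its adjusted p in limma was 0.0599 with the replicate block, 0.113 with 2 groups only and 0.130 without the filter. With any 1 of the 6 libraries left out its value was 0.66 to 0.94. After correction for GC content and gene length Spg7 was a DEG (1.01, limma adjusted p = 0.0222). The list's median was 0.32, and -0.18 with fragment-total scaling, beside 0.04 and -0.42 over all genes. Of 10 outer membrane fusion and shape accessory genes, 5 were tested and 0 were DEGs in limma or voom, with 0 at an unadjusted p under 0.05 and a median of 0.09 (-0.40 with fragment-total scaling). The smallest p was that of Slc25a46 (0.50, limma adjusted p = 0.261), which was -0.01 with fragment-total scaling. Of 6 transport genes, 4 were tested and 0 were DEGs in limma or voom, with 1 at an unadjusted p under 0.05 and a median of 0.27 (-0.22 with fragment-total scaling). The motor gene Kif5b had the smallest p (0.87, limma adjusted p = 0.0921). Its value was 0.34 with fragment-total scaling and 0.31 after quantile normalization, and without Control replicate 2 it was a DEG (1.17, limma adjusted p = 0.0349). The 4 lists held 0 DEGs in MUS vs. Model in limma and in voom, with medians of 0.12 (inner membrane, 1 gene at an unadjusted p under 0.05), -0.12 (outer membrane, 2 genes), 0.02 (DRP1 and MFF, 1 gene) and 0.15 (transport, 0 genes). Over all genes 0 were DEGs and 8.42% had an unadjusted p under 0.05 in limma. The gene of smallest p was Mul1 in the DRP1 and MFF list (-0.89, limma adjusted p = 0.463), Bak1 in the outer membrane list (-1.03, 0.513), Afg3l2 in the inner membrane list (0.58, 0.587) and Rhot1 in the transport list (0.37, 0.734).

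Among 22 regulators and partners of DRP1 and MFF, 19 were tested, and 1 rose and 2 fell in Model vs. Control, which is 15.8% of the list beside 15.1% of all genes. At an unadjusted p under 0.05 in limma there were 8 of the 19, beside 33.6% of all genes. With fragment-total scaling 1 gene of the 19 was called higher and 5 lower, with Dnm2, Pgam5 and Prkaca added. Over all 10066 genes tested, that scaling gave 647 higher and 1633 lower. After quantile normalization 1 of the list was called higher and 3 lower, with Prkaca added, beside 707 and 715 of 9794 genes. This list had a median of -0.14 (-0.59 with fragment-total scaling). March5 (ENSMUSG00000023307, chr19:37207543-37222139, plus strand), whose product is a ubiquitin ligase of the outer membrane that acts on DRP1, MFN1 and MiD49, had 20.4 and 22.3 FPKM for Control, 154 and 123 for Model and 219 and 162 for MUS. All 4 stimulated libraries lay far above Control. It rose in Model vs. Control by 2.63 log2 units (SE 0.31, limma adjusted p = 0.00380), and by 2.11 with fragment-total scaling and 2.04 after quantile normalization. MUS exceeded Model by 0.45 (limma adjusted p = 0.756). The table lists this gene under a date-like name, 1 of 27 such names, so it was identified by its gene ID. It overlaps Cpeb3 on the other strand, which had 0.601 to 2.44 FPKM, and 8.84% of its 50-base stretches also occur in Gm7684 or Gm8641, which had at most 0.298 FPKM.

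Inf2 (chr12:112588784-112615557), an actin formin at contacts with the endoplasmic reticulum, had 13.9 and 13.5 FPKM for Control, 5.24 and 6.25 for Model and 3.71 and 5.45 for MUS. Both Model libraries were below Control, with a log2 fold change of -1.13 (limma adjusted p = 0.0226). Ppp3ca (chr3:136670124-136937727), a catalytic subunit of calcineurin, a phosphatase known to act on DRP1, had 13.0 and 11.4 FPKM for Control, 4.60 and 6.27 for Model and 6.78 and 6.18 for MUS, with a log2 fold change of -1.04 (limma adjusted p = 0.0254). Ppp3cb, another catalytic subunit of calcineurin, named after its values were seen, had 6.16 and 9.55 FPKM for Control and 15.3 and 13.3 for Model, a log2 fold change of 0.81 (limma adjusted p = 0.0870). The Inf2 and Ppp3ca calls were both lost without the filter on low values (adjusted p = 0.0984 in limma for both), with the Model and Control libraries alone (0.0557 and 0.0739), and without Control replicate 1 (0.0973 and 0.122), Model replicate 1 (0.0947 and 0.0961), MUS replicate 1 (0.0533 and 0.0731) or MUS replicate 2 (0.0518 and 0.0731). The Inf2 value was -0.70 (limma adjusted p = 0.0525) after correction for GC content and gene length. Both genes kept their direction under each of these settings.

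**Figure D5:**
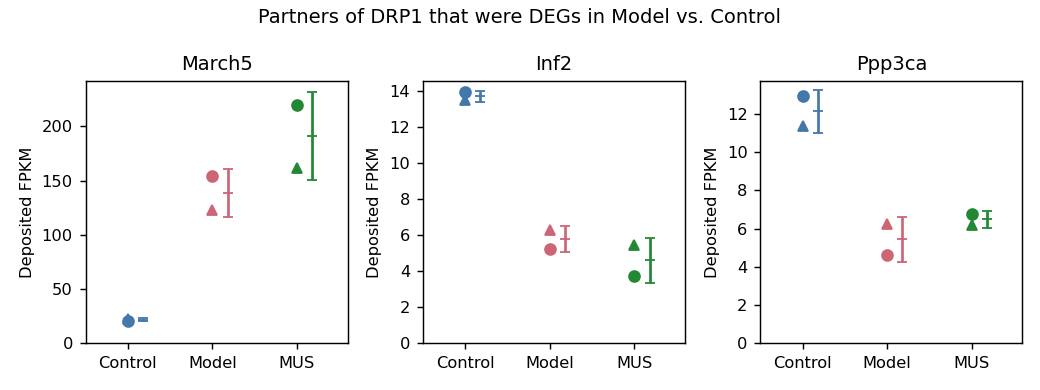
FPKM of March5, Inf2 and Ppp3ca in each library, by group, with circles for replicate 1, triangles for replicate 2, and beside them the mean and SD of the 2 libraries. March5 lies at 20.4 and 22.3 in Control and between 123 and 219 in Model and MUS, while Inf2 and Ppp3ca lie above 11 in Control and at or below 6.78 in the other libraries.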

How the data were processed

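Each of the 6 libraries (2 in Control, 2 in Model, 2 in MUS) was grouped by its labels. The authors deposited 1 table of FPKM, by RSEM according to the study's methods, with DEGs called by DESeq2. The submitters' processing notes name HISAT2, featureCounts 1.5.0-p3 and GRCm39. Positions in the table match GRCm38 (98.3% of 54409 gene IDs had the same start and end in GENCODE M21), so that build is given for coordinates. FPKM times gene length was a whole multiple of 1 step in 100% of values (tolerance 0.1), which gave the fragments per gene. The per-million scale behind the FPKM is not given in the sources used here. No library strand marking is named, so reads of overlapping antisense genes cannot be told apart. The floor set by a count of 0 (3 fragments, counting error only) is 0.131 to 0.213 FPKM at 1 kb of length. All 6 library columns were used.

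The fit was limma 3.58.1 in R 4.3.3 on log2(FPKM + 1) of the 9794 genes whose FPKM averaged 1 or more, with a mean-variance trend, all 6 libraries in one model of 3 groups, 3 residual and 4.04 prior degrees of freedom, two-sided tests and Benjamini-Hochberg adjustment over all genes tested. Simulated data were used to check the fit. Tables and figures were made in Python 3.11.15 with pandas 2.3.3, NumPy 2.4.6 and Matplotlib 3.10.9. The replicate number, given as batch in the labels, entered as a block only in an alternative fit. Differences between replicates 1 and 2 correlated across genes at 0.12 (Control and Model), -0.09 (Control and MUS) and 0.14 (Model and MUS).

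The 10 genes, the lists and the markers were chosen with earlier results of these data known. All 10 genes are named, with every DEG of the lists, the gene of smallest p where a list had none, and the 3 genes most like the member of largest absolute change. Alternatives were pseudocount 0.1, no filter, mean FPKM of at least 5, fragment-total, quantile and median-ratio scaling, voom, 2 groups only, the replicate block, no trend, each library left out, and a correction for GC content and gene length. The last and the median-ratio scaling were added after the data were seen. The NRF1 and NF-κB letters were each shortened by 1 base after a first search with the longer forms.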

Additional observations from a re-analysis of the deposited data

How the results depend on the processing

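No alternative made any of the 10 genes a DEG in either comparison. The replicate block also gave 0 DEGs among them in both comparisons, with 1582 DEGs of all genes in Model vs. Control (1475 without it) and 4 in MUS vs. Model (0 without it), and no call on the 10 genes changed. Over all genes in Model vs. Control, 260 DEGs were called without the filter, 797 with 2 groups only, 2280 with fragment-total scaling and 692 to 2077 with 1 library left out. In MUS vs. Model 1 was called with pseudocount 0.1, 7 with 2 groups only and up to 31 without Model replicate 2.

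The median log2 fold change of the 10 genes in Model vs. Control was 0.30 at a mean FPKM of at least 5 (6 genes tested), -0.35 with fragment-total scaling, -0.011 after quantile normalization and 0.017 to 0.31 with 1 library left out. With fragment-total scaling 1 gene had an adjusted p of at most 0.05. In MUS vs. Model the median was 0.21 at a mean FPKM of at least 5, -0.051 after GC and gene-length correction and 0.043 to 0.22 with 1 library left out.

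In Model vs. Control the sign reversed with fragment-total scaling for Dnm1l (-0.26), Mff (-0.16), Mief1 (-0.074) and Slc25a46 (-0.011), with quantile normalization for Dnm1l (-0.019), and after GC and gene-length correction for Mfn2 (0.19) and Mief2 (0.21). In MUS vs. Model it reversed for Mff with fragment-total scaling (0.0032), quantile normalization (0.022) and median-ratio scaling (0.0076), and for Yme1l1 after GC and gene-length correction (-0.11). With 1 library left out, the ranges that crossed 0 were -0.060 to 0.058 for Mfn2, -0.030 to 0.54 for Dnm1l and -0.39 to 0.27 for Mief2 in Model vs. Control, and -0.22 to 0.24 for Oma1 and -0.12 to 0.11 for Mff in MUS vs. Model. Apart from the scaling and the correction, whose construction moves every value, the cause was not tested. Depth limits Mief2 most, at 18 fragments in MUS replicate 1. After correction for GC content and gene length, the Model vs. Control value was 0.37 for Yme1l1, 0.036 for Dnm1l and 0.076 for Mff. With the same correction it was -0.21 for Mfn1, -0.37 for Opa1, -0.34 for Oma1 and 0.52 for Mief1.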
